A study of Rattus norvegicus with 10 samples.

Results

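Itgb1 and Slc1a3 are a pair of genes that have been proposed to take part in the sensing of mechanical load by bone cells. Their values were read from spotted oligonucleotide arrays of rat tibia by the RefSeq accession that names each row, NM_017022 for Itgb1 and NM_019225 for Slc1a3. Each accession had 1 row, so that the pair made up 2 of the 4803 accessions on the array. By the labels and the study's methods, every array compared both tibiae of 1 female Wistar rat of 12 weeks, killed 6 hours after a single session under isoflurane. In the LOAD group (5 rats) the right tibia was bent between 4 pads for 300 cycles at 2 Hz, with a peak setting of 60 N, which also squeezed the leg. In the SHAM group (5 rats) the pads stood opposite each other, so that the right tibia was squeezed but not bent. The left tibia of the same rat was the contralateral control in both groups and was neither bent nor squeezed. All rats had the same anesthesia, and the labels name no genetic change. LOAD against SHAM asks what bending adds to squeezing, and the contralateral tibiae of LOAD against those of SHAM ask whether the unloaded bones differed. By the study's methods, RNA was extracted from the cleaned shaft, without its ends, outer membrane or marrow. The study names bone cells and cells of vessels within the cortex as its content. Markers of muscle and of marrow and blood also carried signal, as given below, so that the RNA was not of bone and vessel cells alone.

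Itgb1 encodes integrin beta-1, the beta chain shared by a large family of receptors for fibronectin, collagens and other matrix proteins. It spans the cell membrane and couples the matrix to the actin skeleton through focal adhesions, where focal adhesion kinase and Src-family kinases pass the signal on. Slc1a3 encodes GLAST, a sodium-dependent transporter that carries glutamate into cells. GLAST is best known from astrocytes, where it clears glutamate after synaptic release, and it has also been described in osteoblasts and osteocytes.

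Direction and identity were checked before the values were read. The labels of SHAM 1 disagree with each other, since 1 field names LOAD while the title, description and source name SHAM, and it was counted as SHAM. LOAD 2 correlated negatively over 4472 genes with arrays whose treated tibia carried the same dye, at r = -0.345 with LOAD 5 and -0.34 with SHAM 2. The dyes in the labels matched the file headers, so that its direction was kept, and values without it or with its direction turned are given where they matter. LOAD 2 was also the dimmest array, with a median log2 intensity of 6.99 against 7.84 to 9.11 on the other arrays. The headers number the tibiae of 1 rat consecutively on 8 of 10 arrays but not on LOAD 4 and SHAM 4, whose contralateral tibiae are exchanged if the numbers are followed. In that reading the ratios of LOAD 4 and SHAM 4 would compare tibiae of different rats. A gene name could be given to 1178 of the 4803 rows, and markers were sought among these named rows only. All 6 bone markers found there (Mepe, Ibsp, Sparc, Spp1, Phex and Pdpn) carried signal in all 20 channels, where a channel is 1 tibia on 1 array. None of the 3 endothelial markers found there carried signal in 15 or more channels, while muscle creatine kinase (Ckm) carried it in all 20.

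Both genes were detected in every tibia. The probability of signal given by the image software was 1 in all 20 channels for Itgb1, with a spot confidence of 0.85 to 0.98. For Slc1a3 the probability was at least 0.65 in each of the 20 channels and equal to 1 in 14 of them, with a confidence of 0.52 to 0.83. The channels below 1 were all of LOAD, where LOAD 2 had 0.75 and 0.65, LOAD 4 0.75 and 0.87, and LOAD 5 0.87 and 0.88. The raw intensities ran from 413.5 to 4402 for Itgb1 and from 64.5 to 841 for Slc1a3. Brightness depends on the oligonucleotide and gives no ranking of one gene against the other.

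Itgb1 was higher in the loaded than in the contralateral tibia on 4 of 5 LOAD arrays, and the mean difference was within the spread between arrays. The log2 ratio of loaded to contralateral tibia was 0.28 on LOAD 1, 0.58 on LOAD 2, 0.08 on LOAD 3, 0.16 on LOAD 4 and -0.25 on LOAD 5. In SHAM, the ratio of squeezed to contralateral tibia was -0.03, 0.10, 0.12, -0.06 and -0.27 on arrays 1 to 5. The groups overlapped: LOAD 3 lay below the highest SHAM array, and LOAD 5 lay close to the lowest SHAM array. The mean was 0.17 ± 0.30 (SD, n = 5) in LOAD and -0.03 ± 0.16 (SD, n = 5) in SHAM. In LOAD the fitted ratio was 1.13-fold, with a 95% confidence interval from 0.959-fold to 1.32-fold (limma, adjusted p = 0.9998). In SHAM it was 0.980-fold, with an interval from 0.835-fold to 1.15-fold (limma, adjusted p = 1). The difference of the log2 ratios, LOAD minus SHAM, was 0.20 with a standard error of 0.15 and an interval from -0.13 to 0.53 (limma, adjusted p = 0.9986).

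Of the 4707 genes tested in limma, none reached a false discovery rate under 20% in any of these comparisons, so that the share called was 0% in LOAD, in SHAM and in LOAD versus SHAM. The study, which kept duplicate spots apart and filtered to fewer genes, did report genes past this threshold in LOAD. At an unadjusted limma p under 0.05 the shares were 3.34% (157 genes) in LOAD, 0.68% (32 genes) in SHAM and 1.49% (70 genes) in LOAD versus SHAM, and neither Itgb1 nor Slc1a3 was among them. Of all genes, 9.54% had a lower p than Itgb1 in LOAD. An exact permutation test over all sign changes of the ratios gave p = 0.312 for Itgb1 in LOAD and 0.75 in SHAM, 2-sided, where 5 arrays allow no p below 0.0625. The exact permutation test of LOAD against SHAM gave p = 0.23. Without LOAD 2 the mean log2 ratio of Itgb1 in LOAD was 0.07, without LOAD 5 it was 0.28 (limma, unadjusted p = 0.0168, adjusted p = 0.6186), and with the direction of LOAD 2 turned it was -0.06. With both arrays numbered 4 left out, the ratio was 0.17 in LOAD and the difference LOAD minus SHAM was 0.20. Scan batches were formed from a number in the headers that was read as a date. Within the scan batches the difference LOAD minus SHAM was 0.40 in the batch of the arrays numbered 1 and 2, -0.04 for the arrays numbered 3, 0.22 for those numbered 4 and 0.02 for those numbered 5. All batches but the first hold 1 LOAD and 1 SHAM array, so that their difference rests on 1 pair. By dye, the mean ratio of Itgb1 in LOAD was 0.17 over 3 arrays with the loaded tibia in Cy3 and 0.17 over 2 arrays with it in Cy5, the latter spanning -0.25 to 0.58.

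**Figure D1:**
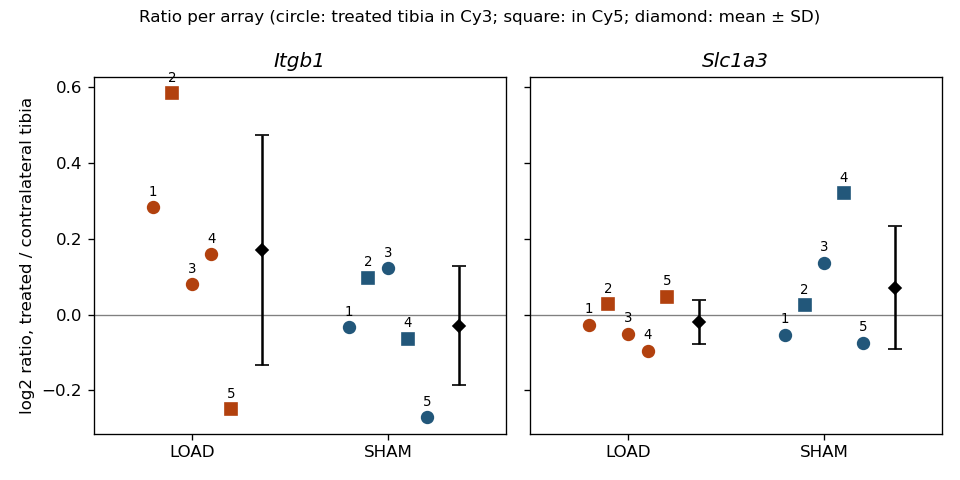
Log2 ratio of the treated (loaded or squeezed) to the contralateral tibia on each array for Itgb1 and Slc1a3; digits are array numbers, circles mark the treated tibia in Cy3, squares in Cy5, and diamonds with bars the mean ± SD of 5 arrays. The LOAD and SHAM points overlap for both genes, and the LOAD points of Slc1a3 lie between -0.10 and 0.05.

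The mean ratio of Slc1a3 was close to 0 in both groups, within the spread between arrays. Its log2 ratio was -0.03 on LOAD 1, 0.03 on LOAD 2, -0.05 on LOAD 3, -0.10 on LOAD 4 and 0.05 on LOAD 5. In SHAM the ratio was -0.05, 0.02, 0.14, 0.32 and -0.08 on arrays 1 to 5, so that SHAM 3 and SHAM 4 lay above every LOAD array and SHAM 5 lay within the range of LOAD. The mean was -0.02 ± 0.06 (SD, n = 5) in LOAD and 0.07 ± 0.16 (SD, n = 5) in SHAM. The fitted ratio in LOAD was 0.987-fold with a 95% confidence interval from 0.884-fold to 1.10-fold (limma, adjusted p = 0.9998), and in SHAM it was 1.05-fold with an interval from 0.941-fold to 1.17-fold (limma, adjusted p = 1). The difference LOAD minus SHAM was -0.09 on the log2 scale, with an interval from -0.31 to 0.13 (limma, adjusted p = 0.9986). Without SHAM 4 this difference was -0.03, and without both LOAD 4 and SHAM 4 it was -0.0089. Within the batches it was 0.01, -0.19, -0.41 and 0.12, in the same order as for Itgb1, and thus held no common sign. Exact permutation tests gave p = 0.5 in LOAD, 0.438 in SHAM and 0.333 for LOAD against SHAM. By dye, the mean ratio of Slc1a3 in LOAD was -0.06 over 3 arrays with the loaded tibia in Cy3, all below 0. It was 0.04 over 2 arrays with it in Cy5, both above 0. In SHAM the means were 0.003 over 3 arrays in Cy3 and 0.17 over 2 in Cy5. Arrays of different dye are also different rats, so that dye and rat cannot be told apart here.

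The intervals of the pair thus covered differences of different size. The residual SD of the log2 ratio was 0.242 for Itgb1, beside a median of 0.241 over the 4707 genes. For Slc1a3 it was 0.122, and 7.67% of the genes had a lower one. Over the 10 arrays the ratios of the pair showed no relation (Pearson's r -0.071, permutation p = 0.827; Spearman's rho -0.006, permutation p = 1.0; r -0.347 without LOAD 2 and SHAM 5). It was 1 of 3 relations computed, and the Benjamini-Hochberg adjusted permutation p was 0.827 for r and 1.0 for rho. The scan batches hold too few arrays for a value within each.

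Most markers of muscle and some of marrow and blood had ratios away from 0 in LOAD, without passing the false discovery rate. The median log2 ratio in LOAD was 0.05 for nerve and glia markers and -0.01 for endothelial markers. It was -0.155 for cartilage and -0.194 for osteoclast markers. All 9 muscle markers tested had lower ratios in LOAD, with a median log2 ratio of -0.63, though Car3 lay near 0 at -0.06. An unadjusted limma p under 0.05 was held by 7 of them, beside 3.34% of all genes. The ratio of Ckm was -0.05, -0.23, -2.095, -2.56 and -1.96 on LOAD arrays 1 to 5. In SHAM 7 of the 9 had higher ratios, with a median of 0.09, beside 51.2% of all genes. The summed intensity of the 8 muscle markers measured on every array was 8040 to 10203 in the loaded and 8681 to 17130 in the contralateral tibiae of LOAD. Of 5 marrow and blood markers, 4 had a higher ratio in LOAD, beside 47.0% of all genes, with a median of 0.24. That median was the value of Epor, which carried signal in 4 of 20 channels. Signal in at least 15 channels was carried by 3 of the 5. These were Cd53, a leukocyte tetraspanin, at 0.29, Lyz2 at 0.34 and Alas2 at -0.08. The summed intensity of the 5 markers was 12137 to 61808 in the loaded and 13431 to 53876 in the contralateral tibiae. No relation was shown between the ratio of Ckm and that of Itgb1 (r 0.106, permutation p = 0.778; rho -0.079, permutation p = 0.839; r 0.267 without LOAD 3 and LOAD 4) or that of Slc1a3 (r 0.299, permutation p = 0.413; rho 0.273, permutation p = 0.449; r -0.008 without the same arrays). The adjusted permutation p was 0.827 for both values of r and 1.0 for both values of rho. The part of marrow cells in the ratio of Itgb1 was not tested. In RNA from the whole shaft, fewer cells of a type and less RNA per cell cannot be told apart.

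The level of Itgb1 was lower in the contralateral tibiae of LOAD rats than in those of SHAM rats, at 0.682-fold with a 95% confidence interval from 0.519-fold to 0.896-fold, and did not pass the test over all genes. Levels are log2 intensities of a channel after normalization across arrays. In the contralateral tibiae of LOAD the level was 9.997, 9.92, 10.29, 9.78 and 10.38 in rats 1 to 5. In the contralateral tibiae of SHAM it was 10.67, 10.17, 10.88, 10.72 and 10.70. All SHAM tibiae but that of SHAM 2 lay above all LOAD tibiae. The means were 10.07 ± 0.25 (SD, n = 5) in LOAD and 10.63 ± 0.27 (SD, n = 5) in SHAM. The difference was -0.55 on the log2 scale with a standard error of 0.19 (limma, unadjusted p = 0.00836, adjusted p = 0.8427), and Itgb1 ranked 40 by p among the 4472 genes measured on every array. Of these genes 0% passed the false discovery rate of 20%, and 5.23% (234 genes) had an unadjusted limma p under 0.05, of which 144 were lower and 90 higher in LOAD.

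In the treated tibiae, Itgb1 differed in the same direction by less. Its level was 10.28, 10.51, 10.37, 9.94 and 10.13 in the loaded tibiae of rats 1 to 5. In the squeezed tibiae of SHAM it was 10.64, 10.26, 11.001, 10.66 and 10.43. SHAM 2 and SHAM 5 lay within the range of the loaded tibiae. The means were 10.25 ± 0.22 (SD, n = 5) and 10.60 ± 0.28 (SD, n = 5), a difference of -0.35 with a 95% confidence interval from -0.75 to 0.04 (limma, unadjusted p = 0.0777, adjusted p = 0.9221). In this comparison 0% of the genes passed the false discovery rate and 4.61% (206 genes) had an unadjusted limma p under 0.05.

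The fitted differences depend on which rat the tibiae of the arrays numbered 4 belonged to. With the contralateral tibiae of LOAD 4 and SHAM 4 exchanged, as their numbers have it, the fitted difference of Itgb1 was -0.12 in the contralateral and 0.02 in the treated tibiae. No treated tibia changed group in this setting, and the means of the treated levels stayed 10.25 in LOAD and 10.60 in SHAM. The fit ties the channels of a spot together, so that its treated value can move with the contralateral labels. Without both arrays the fitted difference was -0.45 (limma, adjusted p = 0.9938) in the contralateral and -0.26 in the treated tibiae. As labelled, the contralateral level was lower in LOAD in every scan batch, with differences of -0.46, -0.58, -0.94 and -0.32 in log2 units, and the treated level differed by -0.06, -0.63, -0.72 and -0.30. Exact permutation tests, added after the levels had been seen, gave p = 0.0238 for the contralateral and 0.0556 for the treated tibiae. Before any normalization, Itgb1 lay 1.86 to 2.32 log2 units above the array's median intensity on LOAD arrays and 2.07 to 2.63 above it on SHAM arrays.

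**Figure D2:**
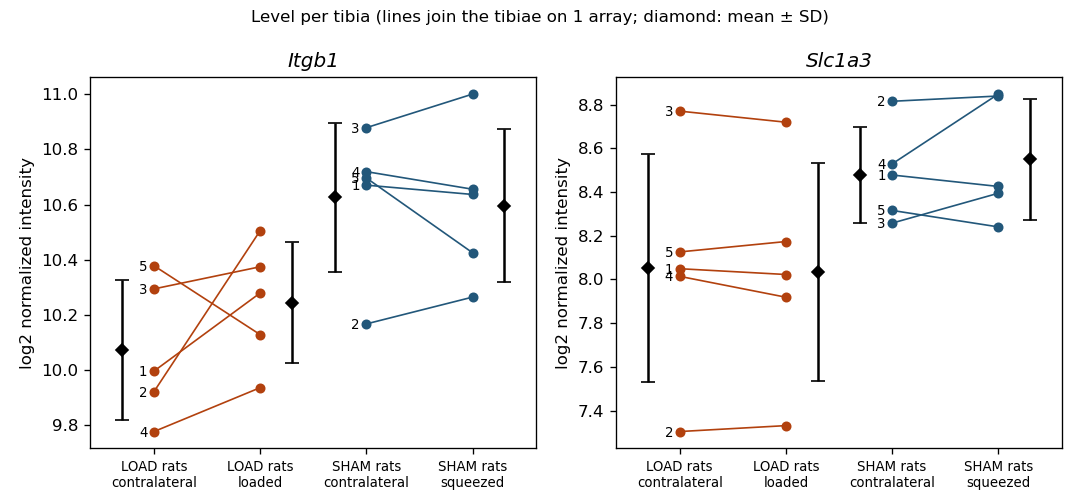
Log2 normalized intensity of Itgb1 and Slc1a3 in each tibia, with lines joining the tibiae of 1 array, digits giving array numbers, and diamonds with bars the mean ± SD of 5 tibiae. For Itgb1, 4 of 5 SHAM contralateral tibiae lie above all LOAD contralateral tibiae; for Slc1a3, LOAD 2 lies lowest and the lines are nearly level in LOAD.

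Slc1a3 also had lower mean levels in LOAD rats, in both tibiae, and its groups overlapped. In the contralateral tibiae of LOAD the level was 8.05, 7.30, 8.77, 8.01 and 8.13 in rats 1 to 5, and in the loaded tibiae it was 8.02, 7.33, 8.72, 7.92 and 8.17. In SHAM the contralateral level was 8.48, 8.82, 8.26, 8.53 and 8.32, and the squeezed level 8.43, 8.84, 8.39, 8.85 and 8.24. Every LOAD tibia except those of LOAD 3 lay below every SHAM tibia, while LOAD 3 lay among the highest. The contralateral means were 8.05 ± 0.52 (SD, n = 5) in LOAD and 8.48 ± 0.22 (SD, n = 5) in SHAM, a difference of -0.43 with a 95% confidence interval from -0.85 to 0.00053 (limma, unadjusted p = 0.0503, adjusted p = 0.8427). The treated means were 8.03 ± 0.50 (SD, n = 5) and 8.55 ± 0.28 (SD, n = 5), a difference of -0.52 with an interval from -0.94 to -0.09 (limma, unadjusted p = 0.0202, adjusted p = 0.9221).

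Leaving out a single array moved the levels of Slc1a3 further than those of Itgb1. Without LOAD 2, the dimmest array, its contralateral difference was -0.24 and its treated difference -0.35. With the contralateral tibiae of the arrays numbered 4 exchanged the fitted values were -0.25 and -0.30, where again no treated tibia changed group. Within the scan batches the contralateral difference was -0.97, 0.51, -0.51 and -0.19, so that the batch of the arrays numbered 3 had the opposite sign. The treated difference was -0.96, 0.32, -0.93 and -0.07 in the same batches. Exact permutation tests, added after the levels had been seen, gave p = 0.127 for the contralateral and 0.0794 for the treated tibiae. Before any normalization, the distance of Slc1a3 from the array's median log2 intensity was -0.75 to 0.55 on LOAD arrays. On SHAM arrays it was 0.14 to 0.71.

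In order of mean level, Itgb1 was lowest in the contralateral tibiae of LOAD, followed by the loaded tibiae, the squeezed tibiae and the contralateral tibiae of SHAM. No neighbours in this order differed beyond their spread at an unadjusted limma p under 0.05. Slc1a3 was lowest in the loaded tibiae, followed by the contralateral tibiae of LOAD, the contralateral tibiae of SHAM and the squeezed tibiae, again with no neighbours past that p. The spread of the levels over arrays and between the tibiae of an array was set side by side. The mean level of an array had an SD of 0.32 log2 units for Itgb1 and 0.449 for Slc1a3, and ranged over 1.08 and 1.51. This spread includes the difference between LOAD and SHAM. The absolute difference between the tibiae of an array had a median of 0.14 for Itgb1 and 0.0515 for Slc1a3, and was at most 0.584 and 0.32. These measures are unlike, so that their sizes give no test of one spread against the other. Over all genes the correlation between the channels of a spot was 0.739. Differences between spots and differences between rats both enter a level and cannot be told apart.

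**Figure D3:**
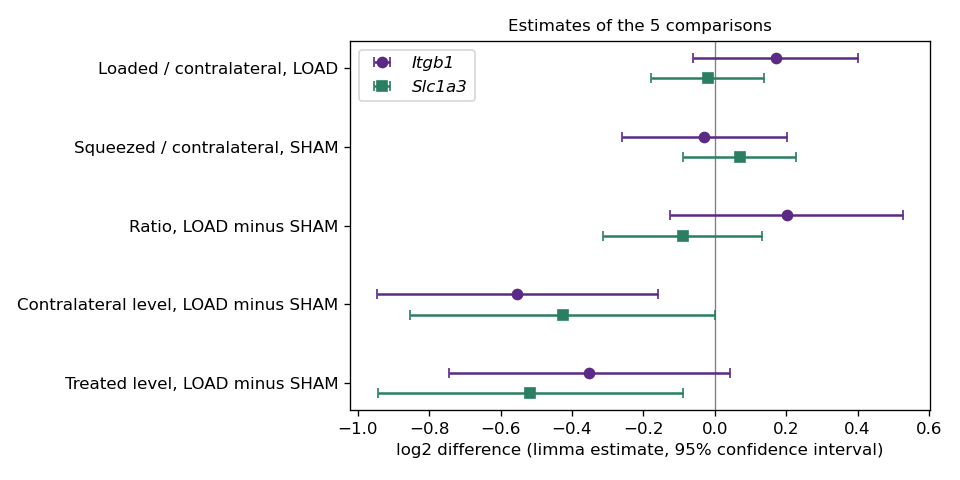
Limma estimates with 95% confidence intervals of the 5 comparisons, on the log2 scale, for Itgb1 (circles) and Slc1a3 (squares). All 6 intervals of the ratios include 0, and the intervals of Itgb1 in the contralateral tibiae, from -0.95 to -0.16, and of Slc1a3 in the treated tibiae, from -0.94 to -0.09, do not.

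Levels of markers of other cells were also set side by side in the contralateral tibiae of the groups, and none passed the false discovery rate. Of 8 muscle markers, 7 had a higher level in LOAD, with a median difference of 0.45, and their summed intensity was 8681 to 17130 in LOAD and 8399 to 10723 in SHAM. All 5 marrow and blood markers had a lower level in LOAD, with a median of -0.41, while 51.5% of all genes had a higher one. Signal in at least 15 channels was carried by 3 of the 5. An unadjusted limma p under 0.05 was held by 1 of them (Cd53, -0.46), beside 5.23% of all genes, and by none of the muscle markers. The summed intensity of the 5 marrow and blood markers was 13431 to 53876 in LOAD and 32705 to 42835 in SHAM. Of 6 bone markers, 5 had a lower level in LOAD, and the median difference was -0.16. The lowest was Phex, an endopeptidase of osteocytes and osteoblasts that controls phosphate handling, at -0.83 with a standard error of 0.23 (limma, adjusted p = 0.603). Phex was picked by the study on these arrays and is no independent evidence. Gapdh, a glycolytic enzyme often used as a reference, differed by -0.44 with a standard error of 0.27. The part of these differences in the levels of Itgb1 and Slc1a3 was not tested.

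Among the other genes of the integrin pathway, no gene passed the false discovery rate of 20% in any comparison. Of 26 integrin subunits in the list, the array carried Itgb1 and Itgb4, the partner of alpha-6 in hemidesmosomes, as named rows. Itgb4 had a log2 ratio of -0.04 in LOAD and -0.05 in SHAM, and its contralateral level differed by -0.15 between LOAD and SHAM. No alpha chain was among the named rows, so that the receptors in which integrin beta-1 takes part were not measured as pairs.

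Of 33 ligands of integrins in the list, the array carried 7 as named rows, and 5 of these carried signal in at least 15 channels. Mepe, a matrix glycoprotein of osteocytes with an integrin-binding motif, had the highest ratio of them in LOAD. Its log2 ratio was 0.86 with a standard error of 0.22 (limma, adjusted p = 0.9998), and the study chose it on these arrays. Beyond the arrays, the study reported higher Mepe RNA in loaded tibiae by RT-PCR. In other rats it reported a borderline significant rise of the protein after a single session, and no difference after repeated loading. Osteopontin (Spp1) had a ratio of 0.01 in LOAD, bone sialoprotein (Ibsp) 0.30 and fibronectin (Fn1) 0.11. Vcam1, a cell surface ligand of the alpha-4 beta-1 integrin on vessels and stromal cells, had a ratio of 0.10 in LOAD. Its contralateral level differed by -0.80 with a standard error of 0.21 (limma, unadjusted p = 0.00107, adjusted p = 0.5956), and its level in the treated tibiae by -0.65 (limma, unadjusted p = 0.00534, adjusted p = 0.8381), in both cases lower in LOAD. It was the only ligand with an unadjusted p under 0.05 in these comparisons of levels, beside 5.23% and 4.61% of all genes.

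Of 11 focal adhesion and integrin signalling genes tested for ratios, none had an unadjusted p under 0.05 in LOAD, SHAM or LOAD versus SHAM. The shares of all genes there were 3.34%, 0.68% and 1.49%. None of the 10 tested for levels had one, beside 5.23% of all genes in the contralateral and 4.61% in the treated tibiae. In lists this small, a count of 0 lies near these shares. Their median log2 ratio was 0.05 in LOAD, with 6 of 11 higher, beside -0.01 over all genes with 47.0% higher. The ratio in LOAD was -0.07 for focal adhesion kinase (Ptk2), 0.09 for the Src-family kinase Fyn, 0.06 for the cytoskeletal kinase Rock2 and 0.26 for the PI3-kinase subunit Pik3r1. Their median contralateral difference was -0.03, with 8 of 10 lower in LOAD, beside 0.01 over all genes with 51.5% higher.

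Glutamate handling was measured around Slc1a3 by 2 transporters, 10 receptors and 8 enzymes or receptor partners. The other transporter among the named rows was Slc1a2 (GLT-1), which also carries glutamate into astrocytes. It had a log2 ratio of 0.10 in LOAD and -0.02 in SHAM, and its level differed by 0.10 in the contralateral and 0.22 in the treated tibiae, opposite in sign to Slc1a3. No test of the difference between the transporters was made. All these values of Slc1a2 had an unadjusted limma p above 0.05.

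Of the 10 glutamate receptors among the named rows, 3 carried signal in at least 15 of 20 channels, beside 65.1% (3129) of the 4803 accessions, and Grin2b and Grm5, for example, carried it in 0 channels. Grin1, the obligatory subunit of the NMDA receptor, had a ratio of -0.15 in LOAD and 0.18 in SHAM. The ratio in LOAD was -0.08 for the AMPA receptor subunit Gria4 and 0.05 for the kainate receptor subunit Grik2. None of the 9 receptors tested for ratios or of the 7 tested for levels had an unadjusted p under 0.05. The shares of all genes were 3.34% in LOAD, 0.68% in SHAM and 1.49% in LOAD versus SHAM. For the levels they were 5.23% in the contralateral and 4.61% in the treated tibiae.

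Of the 8 enzymes and partners, 0 had an unadjusted limma p under 0.05 in LOAD, beside 3.34% of all genes, and 1 had one in SHAM, beside 0.68%. Dlg1, a scaffold protein that binds glutamate receptors and other channels, had a ratio of 0.24 in SHAM with a standard error of 0.11 (limma, unadjusted p = 0.0497, adjusted p = 1) and -0.06 in LOAD. In the contralateral tibiae 6 of 8 were lower in LOAD, with a median difference of -0.16, beside 0.01 over all genes with 51.5% higher. The cytosolic aspartate aminotransferase Got1 differed by -0.33 and glutamate dehydrogenase (Glud1) by -0.21. None of these differences in level had an unadjusted p under 0.05, beside 5.23% of all genes.

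Of 13 other genes proposed in mechanosensing or gap junctions, none had an unadjusted p under 0.05 in the ratios or the contralateral levels. The shares of all genes were 3.34% in LOAD, 0.68% in SHAM, 1.49% in LOAD versus SHAM and 5.23% in those levels. The median ratio in LOAD was -0.03, with 6 of 13 higher, beside -0.01 over all genes with 47.0% higher. Cd44, a receptor for hyaluronan and osteopontin, had a ratio of 0.26 in LOAD, connexin 43 (Gja1), which joins osteocytes through gap junctions, 0.13, and podoplanin (Pdpn), an early osteocyte protein that shapes dendrites, -0.22. The nucleotide receptor P2ry2 had a contralateral difference of -0.66 with a standard error of 0.57. In the treated tibiae 1 of 13 had an unadjusted p under 0.05, beside 4.61% of all genes. It was the vascular connexin Gja5 at -0.36, which carried signal in 13 of 20 channels and was named after its value was seen.

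**Figure D4:**
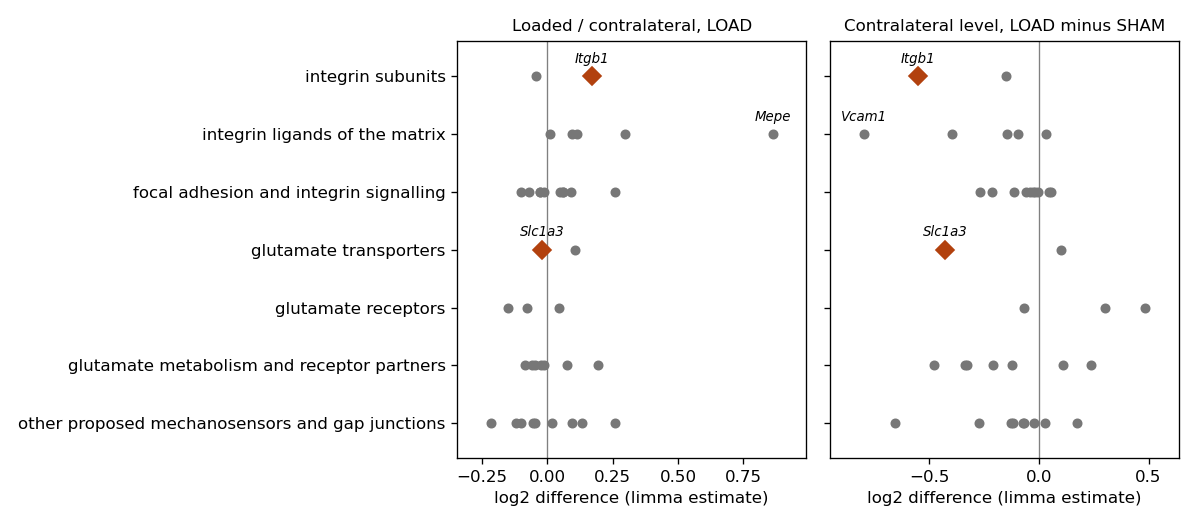
Limma estimates on the log2 scale for the genes of 7 lists with signal in at least 15 of 20 channels, as the ratio of loaded to contralateral tibia in LOAD (left) and as the contralateral level, LOAD minus SHAM (right); diamonds mark Itgb1 and Slc1a3, and other genes are named where the unadjusted p is under 0.05. Mepe stands apart in the left panel at 0.86 and Vcam1 in the right panel at -0.80, below Itgb1 at -0.55.

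The pattern of each gene was set against that of the 729 named genes measured on every array and with signal in at least 15 channels, as a description with no test. By Pearson's r of the log2 ratio over 10 arrays, the genes most like Itgb1 were Adam7 (0.852), the lysosomal protease cathepsin L (Ctsl, 0.834), the beta-1 adrenergic receptor (Adrb1, 0.829), Pctp (0.821) and Adh4 (0.817). Among the most opposed were the insulin receptor (Insr, -0.817) and ferritin heavy chain (Fth1, -0.813). Slc1a3 came at place 389 of this order. By the level over 20 tibiae, the genes most like Itgb1 were carboxypeptidase E (Cpe, 0.814), Vldlr (0.734), Nudc (0.727), Phex (0.726) and Pthlh (0.705), the gene of parathyroid hormone-related protein, and Slc1a3 came at place 138. Tibiae of 1 array share spots and rats, so that the 20 levels are not independent.

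For Slc1a3, the genes most alike in the ratio were pyruvate carboxylase (Pc, 0.82), the acetylcholine receptor subunit Chrng (0.775), synaptophysin (Syp, 0.771), the calmodulin-dependent kinase Camk4 (0.762) and the glucose transporter Slc5a1 (0.76). The most opposed were pleiotrophin (Ptn, -0.788), Ralgapa1 (-0.748) and Sycp1 (-0.744). By level they were cyclin G1 (Ccng1, 0.852), the leptin receptor (Lepr, 0.836), Acp2 (0.821), Rasa1 (0.814) and hexokinase 2 (Hk2, 0.759). Among these lists, no gene was named both for Itgb1 and for Slc1a3.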

How the data were processed

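RNA of both tibiae of each rat was labelled with Cy3 and Cy5, with the dyes exchanged on part of the arrays, and hybridised to spotted oligonucleotides. Images were quantified by the authors in BlueFuse. Per channel, the deposited files hold an unnormalized intensity. The spot confidence and the probability of signal were deposited as a fraction. The deposited matrix holds log2 ratios of treated to control without normalization, which differed from those intensities by at most 0.000527; its medians ran from -1.18 to 0.802. In the deposited files the duplicate spots of an accession stand as 1 row, whereas the study analysed them separately. Here, spots with a confidence under 0.11 were set missing, ratios were normalized per array by loess (span 0.3, 4 iterations), and genes with over 1 missing value of 10 were left out (96). Group means were fitted with limma 3.58.1 (R 4.3.3), and p-values were adjusted after Benjamini and Hochberg over all genes. Levels were taken after Aquantile normalization and fitted by limma's single channel analysis. A false discovery rate under 20% was the threshold, as in the study. The script was tested on simulated data. Exact permutation tests were 2-sided; relations used 100000 resamples. Signal means a probability of at least 0.5. Names came from RefSeq accessions (1177 of 4803; Mepe from the study), and the build of the oligonucleotides is not given in the sources used here. The study states that oligonucleotides may cross-react with other genes. The genes, lists, comparisons and alternatives were chosen with earlier results of these data known. Genes named besides Itgb1 and Slc1a3 were, per list and comparison, up to 4 with signal in at least 15 channels and the lowest p, the 5 most alike and 3 most opposed in pattern, and a few markers; a few genes that this rule names are not reported here. The alternatives changed normalization, filters, offset, dye and batch terms, the labels of doubtful arrays and the arrays included. The number of arrays limits the precision.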

Additional observations from a re-analysis of the deposited data

How the results depend on the processing

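No alternative brought Itgb1 or Slc1a3 past the false discovery rate of 20% in any comparison; the lowest adjusted p in limma was 0.3321, for Slc1a3 in the treated tibiae. With the deposited ratios left unnormalized, the median of all genes moved to -0.23 in LOAD, -0.42 in SHAM and 0.19 in LOAD versus SHAM; Itgb1 in LOAD became -0.11 (0.12 above that median), Slc1a3 in SHAM -0.32 (0.10 above) and Slc1a3 in LOAD versus SHAM 0.12 (-0.07 relative to it), while 9 genes passed in LOAD and 2 in LOAD versus SHAM, none of them Itgb1 or Slc1a3. With the dyes of LOAD 2 exchanged, a setting chosen after seeing the data, Itgb1 was -0.062 in LOAD and -0.032 in LOAD versus SHAM. With the contralateral tibiae of the arrays numbered 4 exchanged, also added later, the fitted treated difference of Itgb1 was 0.023, although no treated tibia changed group. In that setting 3 genes passed between the contralateral tibiae. With scan batch as a block in the levels, added later too, 3 passed between them. The cause of these changes was not tested. Leaving out each array in turn gave 0.07 to 0.28 for Itgb1 in LOAD, -0.068 to 0.030 in SHAM (above 0 without SHAM 5), 0.10 to 0.31 in LOAD versus SHAM, -0.67 to -0.48 in the contralateral and -0.43 to -0.25 in the treated tibiae, and for Slc1a3 -0.04 to 0.00, 0.01 to 0.11, -0.13 to -0.03, -0.61 to -0.24 and -0.69 to -0.35. It left 0 to 8 genes passing between the contralateral tibiae (8 without LOAD 3). An unadjusted p under 0.05 was held by Itgb1 in the contralateral tibiae under 19 of 21 alternatives and by Slc1a3 in the treated tibiae under 16 of 21. The alternatives refit the same arrays and are not independent of each other. In the contralateral tibiae Itgb1 did not hold such a p without both arrays numbered 4 (limma, unadjusted p = 0.0619). Nor did it hold one with their contralateral tibiae exchanged (limma, unadjusted p = 0.488). In the ratios, Itgb1 held one only without LOAD 5, in LOAD (limma, adjusted p = 0.6186) and in LOAD versus SHAM (limma, adjusted p = 0.8553). LOAD and SHAM arrays share numbers, and the deviations of arrays of the same number correlated at -0.408 to 0.0672. On the arrays numbered 4 and 5 the treated tibiae of LOAD and SHAM carried different dyes, and the direction of LOAD 2 is in doubt. These correlations therefore cannot show whether arrays of a number are related. With the replicate block, LOAD versus SHAM was 0.20 for Itgb1 (limma, adjusted p = 0.9989) and -0.09 for Slc1a3, with 0 genes passing. Each number holds 1 LOAD and 1 SHAM array, so that this block can change the standard errors of the pair but not these estimates.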
